A study of Mus musculus with 8 samples.

Results

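S100 proteins are small proteins that bind calcium through EF-hand motifs, change shape when they do, and then bind partner proteins inside the cell. Some are also released and act on neighbouring cells. S100a8 and S100a9, which pair to form calprotectin, are abundant in neutrophils and monocytes and are ligands of Toll-like receptor 4. The transcripts of 10 members of this family, of 23952 gene symbols in the deposited table, were followed through a mouse Lewis lung carcinoma: S100a1, S100a4, S100a6, S100a8, S100a9, S100a10, S100a11, S100a13, S100a16 and S100b. Members were taken by symbol, and for each symbol the transcript with the largest average RPKM in the 8 libraries was used. Of these 10, 9 are on mouse chromosome 3 and S100b is on chromosome 10.

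RNA was sequenced from 3 sorted populations of subcutaneous tumours and from whole tumours, with 2 libraries in each of the 4 groups. The tumours were grown from Lewis lung carcinoma cells, a mouse line, that carried the red protein dTomato, in Col1a1-GFP mice, in which cells with an active type I collagen promoter are green. The mice had received fluorescent collagen 24 h before cell preparation. TAM, the tumour-associated macrophages, were dTomato- and GFP-, carried F4/80 on their surface and had taken up labelled collagen. Fibroblast cells were GFP+ and LLC cells were dTomato+. Total tumor libraries came from unsorted tumours. All 4 groups therefore come from tumours of the same cell line in the same reporter strain, TAM are the collagen-containing subset of F4/80+ cells, and Fibroblast cells are those in which the Col1a1 reporter was on. No label says if the paired libraries stem from different mice, so the p-values reflect the spread between libraries, which may be technical.

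Values are RPKM, reads per kilobase of transcript scaled to the mapped reads of the library. Differences were tested with limma on log2(RPKM + 1), a scale that understates the change of low genes, in a single fit of all 8 libraries. The test covered 13311 genes with at least 1 RPKM in at least 2 libraries, and p-values were adjusted by Benjamini-Hochberg over all of them, with a threshold of 0.05. The depth estimated from the smallest steps between low values was 4.28 to 10.37 M reads a library. Markers fitted the TAM and Fibroblast labels, and no listed marker defines LLC cells. All 10 macrophage and monocyte markers, C1qa and Lyz2 among them, passed the test as higher in TAM than in Fibroblast and in LLC libraries, and all 7 fibroblast markers passed as higher in Fibroblast than in TAM libraries, with 5 of 7 also higher than in LLC. Of all genes tested, 17.4% were higher in TAM than in Fibroblast and 15.4% higher in TAM than in LLC. The shares higher in Fibroblast were 17.3% against TAM and 13% against LLC. Summed fibroblast markers in LLC libraries still reached 16.1% and 21.5% of their mean in Fibroblast libraries, and summed macrophage markers there were 0.453% and 2.91% of their mean in TAM libraries. Of the epithelial list, the keratins Krt8 (57.5 and 43.6 RPKM in LLC) and Krt18 (121.7 and 82.8 RPKM) passed as higher in LLC than in TAM and in Fibroblast libraries. Krt19, a further keratin of the list, went the other way. It was at 0.07 and 1.53 RPKM in LLC and passed as higher in Fibroblast than in LLC (log2 difference 4.67, adjusted p = 0.00503 in limma). Epcam, a surface marker, was listed at 0 in LLC 1 and at 0.454 RPKM in LLC 2. Fibroblast 2 also carried epithelial markers, which summed to 179.1 RPKM there (Krt19 at 99.6 and Epcam at 8.93 RPKM), against 24.8 RPKM in Fibroblast 1. Their part in the members' Fibroblast values was not tested.

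The library Total tumor 2 stood apart in a way that touched every member but S100b, which was near 0 in both Total tumor libraries. In it, transcripts under 1 kb had a median of 2.37 times their RPKM in Total tumor 1 (909 genes), while transcripts of 3 kb and over had a median of 0.736 times (4910 genes). The members are 486 to 1484 bases long, against a median of 2744 bases for the genes tested. Their ratio between these libraries ran from 1.85 for S100a16 to 5.87 for S100a8, with a median of 2.95 over the 9 members present in both. The corresponding median ratio of the members was 0.926 between the TAM libraries, 0.893 between the Fibroblast libraries and 0.855 between the LLC libraries. Absolute levels in Total tumor are therefore given per library, and because limma pools the spread of all 4 groups, Total tumor also widened the standard errors between sorted populations. The part that transcript length played in each member's difference from Total tumor was not tested beyond the length-corrected fit given in the closing section.

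**Figure D1:**
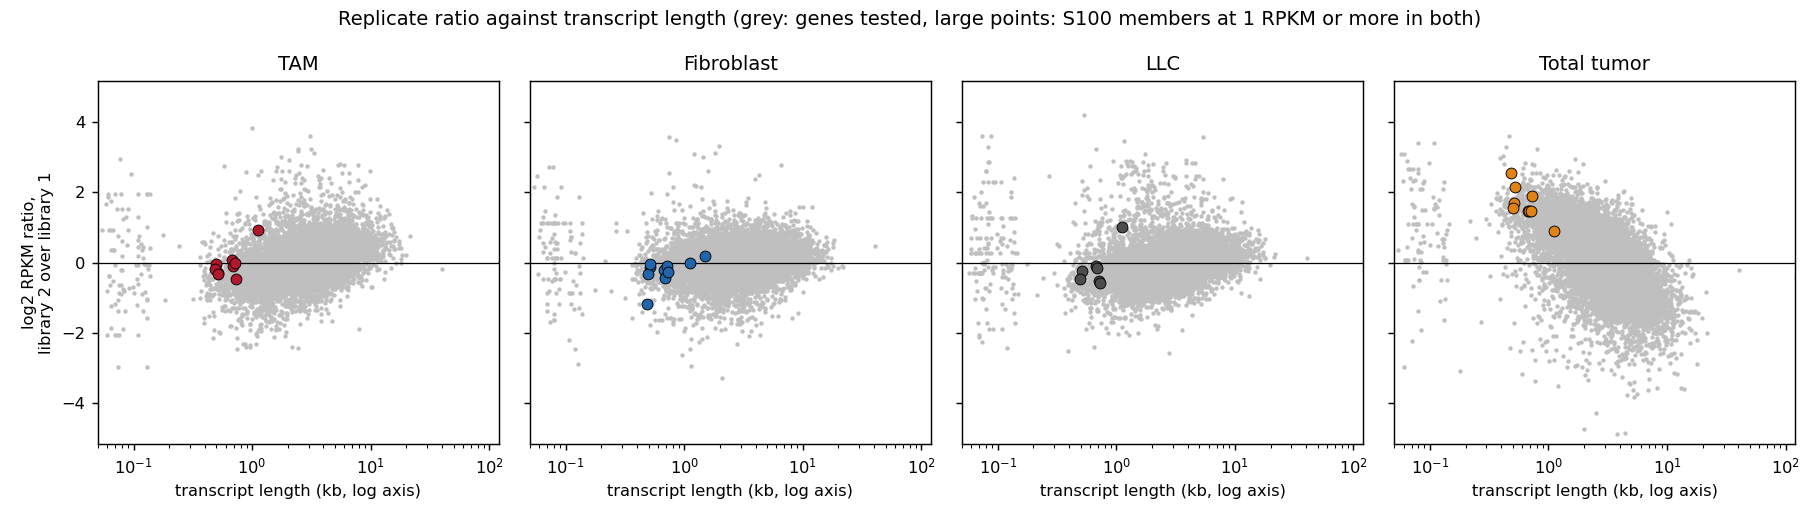
log2 ratio of RPKM in library 2 over library 1 (vertical axis) against transcript length in kb (horizontal, log axis), for the genes tested (grey) and the S100 members at 1 RPKM or more in both libraries (large points), in each group. In Total tumor the grey cloud falls with length and the members lie between ratios of 1.85 and 5.87, while in the sorted groups the members lie near the line of equal values apart from S100a16 in TAM and LLC and S100a8 in Fibroblast.

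Between sorted populations, 3 members were higher and 2 lower in TAM than in Fibroblast libraries, where 17.4% of all genes tested were higher and 17.3% lower. Against LLC, TAM libraries had 2 members higher and 1 lower, beside 15.4% and 27.5% of all genes. Fibroblast libraries had 2 members higher and 2 lower than LLC, beside 13% and 25.7% of all genes. The family did not move as a block. The median log2 difference over the 10 members was 0.09 for TAM against Fibroblast, where that of all genes tested was 0.13. For TAM against LLC the members' median was -0.18 and that of all genes -0.38, and for Fibroblast against LLC the members' median was 0.28 and that of all genes -0.46. Other scalings moved both kinds of median. The members' median for TAM against Fibroblast turned to -0.27 under upper-quartile rescaling (all genes -0.15), -0.26 under quantile normalization (all genes 0.10) and -0.35 under length correction (all genes 0.02). For TAM against LLC it was -0.09, -0.63 and -0.03 in the same order (all genes -0.25, -0.15 and 0.01), and for Fibroblast against LLC 0.69, 0.01 and 0.81 (all genes -0.04, -0.19 and 0.04). The split of all calls moved as well. Of all genes called between Fibroblast and LLC, 33.6% were higher in Fibroblast as deposited and 60.7% after upper-quartile rescaling. For TAM against Fibroblast these shares were 50.2% and 38.4%. For TAM against LLC the share was 35.9% as deposited, 46.3% after quantile normalization and 52.7% after length correction.

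**Figure D2:**
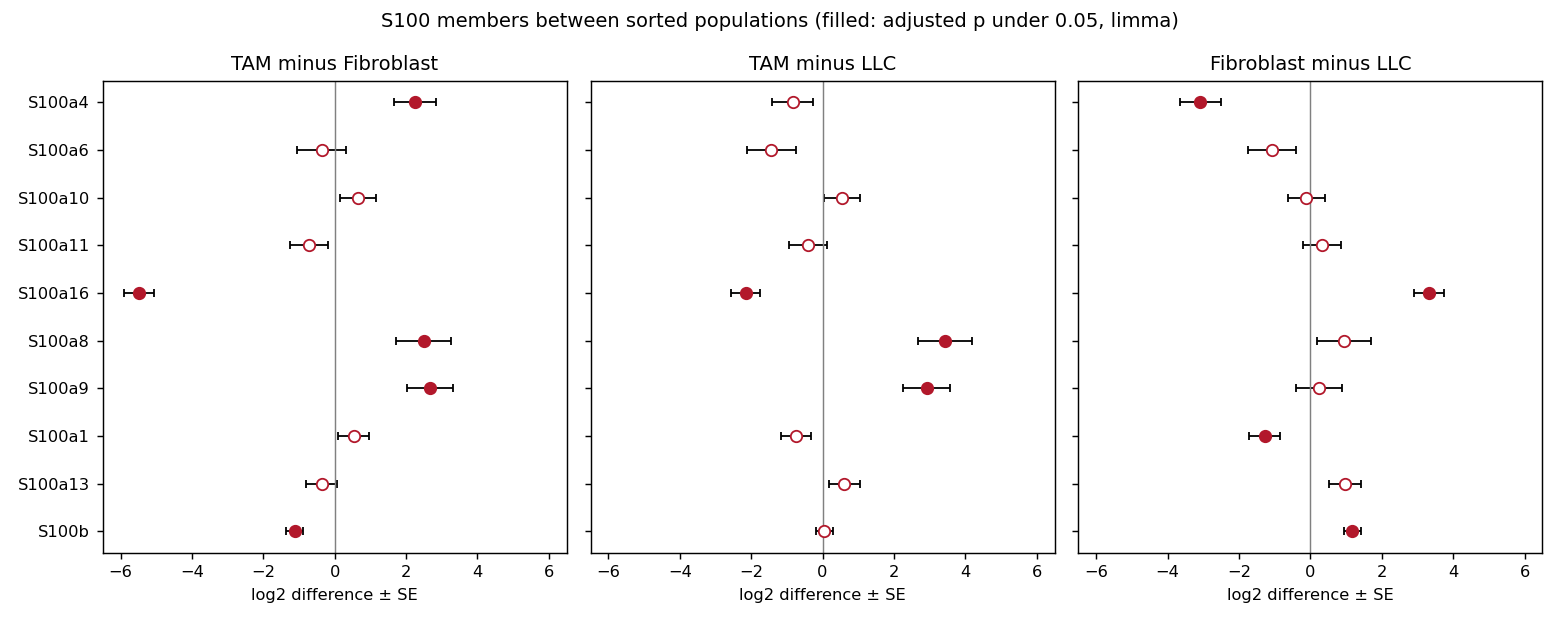
log2 difference ± SE on the log2(RPKM + 1) scale (horizontal axes) of each S100 member (rows) for TAM minus Fibroblast, TAM minus LLC and Fibroblast minus LLC. Filled points have an adjusted p under 0.05 in limma. S100a16 is the farthest from 0 in TAM minus Fibroblast, at -5.48, and S100a8 and S100a9 are right of 0 in both TAM comparisons.

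S100a8 and S100a9 were higher in TAM than in both other sorted populations, and higher still in whole tumours. S100a8 was at 15.1 and 13.2 RPKM in TAM libraries, at 2.48 and 1.09 RPKM in Fibroblast libraries, at 0.992 and 0 RPKM in LLC libraries, and at 41.5 and 244 RPKM in Total tumor libraries. S100a9 was at 17.8 and 14.3 RPKM in TAM, 1.67 and 1.63 RPKM in Fibroblast, 0.558 and 2.25 RPKM in LLC, and 72.7 and 319 RPKM in Total tumor. For both genes, each Total tumor library lay above every sorted library and each TAM library above every Fibroblast and LLC library. The 0 in LLC 2 allows up to about 1.44 RPKM of S100a8, the worth of 3 reads at the estimated depth, and such limits cover counting error only.

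In limma, S100a8 was higher in TAM than in Fibroblast by 2.49 on the log2 scale (SE 0.76, adjusted p = 0.0367) and S100a9 by 2.68 (SE 0.65, adjusted p = 0.0141), a 9.71-fold ratio of mean RPKM for S100a9. Against LLC, TAM was higher by 3.42 for S100a8 (SE 0.76, adjusted p = 0.00863) and by 2.91 for S100a9 (SE 0.65, adjusted p = 0.00892). These calls between TAM and Fibroblast were lost when any TAM or Fibroblast library was left out. The adjusted p was then 0.154 for S100a8 and 0.0871 for S100a9 without TAM 1, 0.12 and 0.0576 without TAM 2, 0.1 and 0.0835 without Fibroblast 1, and 0.214 and 0.088 without Fibroblast 2. The S100a8 call was also lost without LLC 1 or LLC 2 (adjusted p = 0.0527 and 0.0522), with the replicate number as a block (0.0608), with pseudocounts of 0.1 and 5 (0.0916 and 0.125) and with no filter (0.0656), and the S100a9 call with a pseudocount of 5 (0.0594). Against LLC, S100a8 lost its call without TAM 1 (adjusted p = 0.0539), without LLC 2 (0.0621) and with a pseudocount of 5 (0.0587), and S100a9 without TAM 1 (0.0591) and without LLC 1 (0.0692). The log2 difference kept its sign each time. Between Fibroblast and LLC neither gene passed the test, with a difference of 0.93 for S100a8 (SE 0.76, adjusted p = 0.358) and 0.24 for S100a9 (SE 0.65, adjusted p = 0.801).

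The promoter windows of this pair are shown because both genes followed the same order of groups. Each is RefSeq sequence of GRCm38.p6, a later build than the mm9 coordinates to which the submitters' processing notes refer, and runs from 250 bases before to 50 bases after the annotated start, 5′ to 3′ on the gene's strand. S100a8 is at chr3:90668821-90669120 on the plus strand and S100a9 at chr3:90695672-90695971 on the minus strand. Capitals mark matches, on either strand, to 4 motifs: TATAAA, to which the TATA-binding protein attaches, the PU.1 motif GAGGAA, of a myeloid transcription factor, the C/EBP motif TTGCNNAA, of factors active in granulocytes and monocytes, and the AP-1 motif (TGA, any base, then TCA).
S100a8: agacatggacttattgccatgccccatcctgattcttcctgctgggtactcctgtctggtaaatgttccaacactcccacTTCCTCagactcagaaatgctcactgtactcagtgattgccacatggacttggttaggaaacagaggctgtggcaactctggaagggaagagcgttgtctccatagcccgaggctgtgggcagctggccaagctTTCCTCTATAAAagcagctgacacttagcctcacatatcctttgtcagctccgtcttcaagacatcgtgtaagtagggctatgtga
S100a9: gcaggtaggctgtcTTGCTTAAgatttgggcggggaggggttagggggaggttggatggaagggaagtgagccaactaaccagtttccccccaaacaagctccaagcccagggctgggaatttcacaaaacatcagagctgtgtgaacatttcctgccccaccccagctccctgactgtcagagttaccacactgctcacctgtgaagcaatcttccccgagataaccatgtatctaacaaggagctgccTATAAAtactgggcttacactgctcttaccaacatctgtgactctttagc
Both windows hold TATAAA, which 13.6% of 32851 mouse promoter windows do. In the S100a9 window the match is at bases 251 to 256, so that it begins at the annotated start and not before it. In the S100a8 window TATAAA is at bases 221 to 226. It directly follows a GAGGAA match on the other strand at bases 215 to 220. S100a8 holds a further GAGGAA match, at bases 81 to 86, a motif in 28.3% of windows. S100a9 holds TTGCNNAA at bases 15 to 22, a motif in 10.8% of windows. A match describes these letters and not a bound site.

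Whole tumours held more of this pair than any sorted population did. TAM were lower than Total tumor by log2 differences of -2.75 for S100a8 (SE 0.76, adjusted p = 0.0261) and -3.18 for S100a9 (SE 0.65, adjusted p = 0.0087). Fibroblast libraries were lower by -5.24 and -5.85 (adjusted p = 0.00199 and 0.000847), and both of these calls held in all 20 alternatives. LLC libraries were lower by -6.17 and -6.09 (adjusted p = 0.0217 and 0.019). With Total tumor 1 as the only whole-tumour library, TAM were lower by -1.49 for S100a8 (adjusted p = 0.0509), the lone library being assumed to vary like the other groups. Leaving out TAM 1 gave an adjusted p of 0.0997 for S100a8, leaving out TAM 2 gave 0.114 for S100a8 and 0.0566 for S100a9, and leaving out Fibroblast 1 or 2 gave 0.0556 and 0.0553 for S100a8. The calls of both genes between LLC and Total tumor were lost without any 1 of TAM 1, TAM 2, Fibroblast 1, Fibroblast 2 or LLC 1, with adjusted p-values of 0.0571 to 0.104, with no filter (0.059 for S100a8 and 0.0532 for S100a9) and in a fit of only these 4 libraries (0.269 for both). The fit of only TAM and Total tumor gave 0.1 for S100a8 and 0.0562 for S100a9, and S100a8 also lost that call with a pseudocount of 0.1 (0.108) and with no filter (0.0515).

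Cells outside the 3 gates were not collected, and in bulk RNA fewer cells of a type and less RNA per cell cannot be told apart. Of 11 neutrophil markers listed, 10 were in the table and 5 passed the filter on low values. Camp and Mpo, which encode granule proteins, were listed at 0 in all 8 libraries. The listed markers summed to 54.3 and 49.6 RPKM in TAM, 39.5 and 59.4 RPKM in Fibroblast, 3.2 and 7.1 RPKM in LLC, and 28.7 and 61.6 RPKM in Total tumor. Lcn2, which codes for the iron-siderophore binding protein lipocalin-2, made up most of the Fibroblast sum, at 37.1 and 57.5 RPKM. Csf3r, the receptor for granulocyte colony-stimulating factor, was at 32.0 and 29.9 RPKM in TAM, against 12.2 and 15.5 RPKM in Total tumor. Mmp8, neutrophil collagenase, was at 17.5 and 13.2 RPKM in TAM, against 3.27 and 4.16 RPKM in Total tumor. Of the 5 tested, 1 passed as higher in TAM than in Total tumor, Mmp8 (log2 difference 1.79, SE 0.31, adjusted p = 0.00497), and 2 as lower, Cxcr2 and Lcn2. Among all genes tested, 11.3% were higher and 23.9% lower in this comparison. Cxcr2, a chemokine receptor of neutrophils, was at 0.422 and 1.1 RPKM in TAM, against 3.51 and 5.49 RPKM in Total tumor (log2 difference -1.65, SE 0.30, adjusted p = 0.006 in limma). Cxcr2 reached 1 RPKM only in both Total tumor libraries and TAM 2. It thus passed the filter through Total tumor, and this call is no separate evidence. Retnlg was at 3.87 and 1.85 RPKM in TAM, against 3.15 and 13.7 RPKM in Total tumor, and did not pass (adjusted p = 0.252). The part of neutrophils in the whole-tumour levels of S100a8 and S100a9 was not tested. The macrophage marker sum in LLC 2, where S100a9 was at 2.25 RPKM, was 501 RPKM, against 78 RPKM in LLC 1, where it was at 0.558 RPKM, and the part of macrophage RNA in that difference was not tested either.

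**Figure D3:**
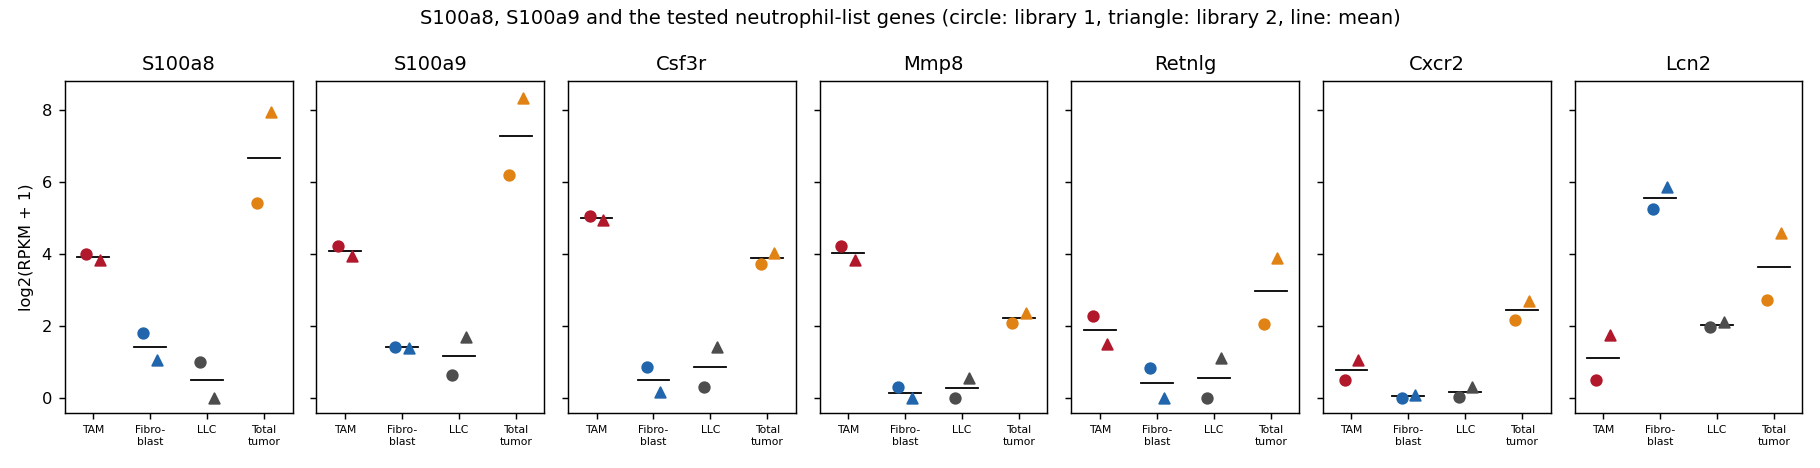
log2(RPKM + 1) (vertical axis) of S100a8, S100a9 and the 5 genes of the neutrophil list that passed the filter, in TAM, Fibroblast, LLC and Total tumor libraries (horizontal axis, circles library 1, triangles library 2, lines means). Total tumor is highest for S100a8, S100a9 and Cxcr2, TAM for Csf3r and Mmp8, and Fibroblast for Lcn2.

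The 2 genes kept a fairly steady proportion where both were abundant. S100a8 RPKM over S100a9 RPKM was 0.844 and 0.929 in TAM and 0.571 and 0.764 in Total tumor. After each gene was centred on its own mean over the 8 libraries, each was the other's closest match among all genes tested, at a root-mean-square difference of 0.626 on the log2 scale. The next closest to both were Tpsb2 and Mcpt4, known as mast cell proteases, at 1.04 and 1.12 from S100a8.

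S100a4, the protein also called fibroblast-specific protein 1 and known to bind non-muscle myosin, was lowest in the sorted fibroblasts. It was at 831 and 811 RPKM in TAM libraries, 191 and 154 RPKM in Fibroblast libraries, 1720 and 1251 RPKM in LLC libraries, and 1242 and 3667 RPKM in Total tumor libraries. Both Fibroblast libraries lay below the other 6, and the TAM, Fibroblast and LLC ranges did not overlap. S100a4 ranked 10th by RPKM of 23952 symbols in LLC 1, 65th in TAM 1 and 230th in Fibroblast 1. TAM averaged 821 ± 14.3 RPKM and Fibroblast 173 ± 26.5 RPKM (SD, n = 2 each), a ratio of 4.76 and a log2 difference of 2.25 (SE 0.58, adjusted p = 0.0182 in limma). Fibroblast was below LLC by a log2 difference of -3.09 (SE 0.58, adjusted p = 0.00541) and below Total tumor by -3.63 (SE 0.58, adjusted p = 0.00285), and the call against Total tumor held in all 20 alternatives.

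TAM did not differ from LLC at the threshold (log2 difference -0.84, SE 0.58, adjusted p = 0.281), but did when Total tumor 1 or Total tumor 2 was left out of the fit (adjusted p = 0.0305 and 0.0306), and after quantile normalization and length correction (adjusted p = 0.00221 and 0.0375). Between TAM and Fibroblast the adjusted p was 0.0509 with no filter on low values, 0.0884 without TAM 1, 0.0842 without TAM 2, 0.112 without Fibroblast 1 and 0.169 without Fibroblast 2. Between Fibroblast and LLC it was 0.053 without Fibroblast 1, 0.075 without Fibroblast 2 and 0.0511 without LLC 1. In these fits the log2 difference stayed between 2.10 and 2.41 for TAM minus Fibroblast and between -3.25 and -2.86 for Fibroblast minus LLC. TAM were below Total tumor by -1.38 (adjusted p = 0.102). That difference was -2.16 and passed without Total tumor 1 (adjusted p = 0.00351), and was -0.60 and did not pass without Total tumor 2 (adjusted p = 0.171).

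The S100a4 window (chr3:90603520-90603819, plus strand, GRCm38.p6, RefSeq) is shown for its TATAAA, at bases 220 to 225, in nearly the same place as in the S100a8 window. Capitals mark matches to the motifs listed for S100a8.
S100a4: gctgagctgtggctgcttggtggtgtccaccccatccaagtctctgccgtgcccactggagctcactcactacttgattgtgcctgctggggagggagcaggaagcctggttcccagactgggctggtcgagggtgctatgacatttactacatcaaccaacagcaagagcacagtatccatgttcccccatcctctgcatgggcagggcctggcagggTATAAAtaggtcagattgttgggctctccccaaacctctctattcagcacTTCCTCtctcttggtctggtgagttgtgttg
It also holds GAGGAA on the other strand at bases 270 to 275. S100a4, S100a8 and S100a9 were the 3 members with TATAAA, of 9 members with a window, that of S100a9 lying at the annotated start. The 3 tested genes closest to S100a4 in pattern were Hopx, Cdt1 and Rbm38, at root-mean-square log2 differences of 0.246, 0.262 and 0.278.

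S100a6, calcyclin, which binds annexins and the calcyclin-binding protein Cacybp, had the highest mean level of the members in LLC libraries. It was at 703 and 508 RPKM in TAM, 839 and 703 RPKM in Fibroblast, 1993 and 1320 RPKM in LLC, and 1077 and 3977 RPKM in Total tumor. LLC lay above both other sorted populations, which overlapped each other. It ranked 6th of all symbols in LLC 1, 31st in Fibroblast 1 and 84th in TAM 1. No comparison passed the test in the fit of all libraries as deposited. The log2 difference was -0.36 for TAM against Fibroblast (SE 0.69, adjusted p = 0.733), -1.44 for TAM against LLC (SE 0.69, adjusted p = 0.13) and -1.08 for Fibroblast against LLC (SE 0.69, adjusted p = 0.246). After quantile normalization TAM (-2.38, adjusted p = 0.00181) and Fibroblast (-1.37, adjusted p = 0.0254) passed as lower than LLC. Length correction made TAM pass against LLC (-1.35, adjusted p = 0.00875). TAM also passed as lower than Total tumor after quantile normalization (-2.39, adjusted p = 0.00316) and length correction (-1.24, adjusted p = 0.0156), and with no variance trend (-1.79, adjusted p = 0.0445). That difference was -2.73 without Total tumor 1 and -0.85 without Total tumor 2. In fits of only the groups compared, TAM (adjusted p = 0.0378) and Fibroblast (adjusted p = 0.0459) passed as lower than LLC. Without Total tumor 1 or 2, the difference from LLC passed for TAM (adjusted p = 0.00837 and 0.00838) and for Fibroblast (0.0268 and 0.0269). The closest gene in pattern was Rplp1, a ribosomal protein gene, at a root-mean-square log2 difference of 0.13.

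The proportion of these 2 abundant members, which library scaling does not change, separated the sorted fibroblasts. S100a4 over S100a6 was 1.18 and 1.6 in TAM, 0.228 and 0.219 in Fibroblast, 0.863 and 0.948 in LLC, and 1.15 and 0.922 in Total tumor. Fibroblast cells thus held several times more S100a6 than S100a4, while the other groups held the 2 at similar levels, Total tumor 2 included. The ratio was chosen after the values were seen, and with 2 libraries a group the smallest p an exact two-sided permutation test can give is 0.333.

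**Figure D4:**
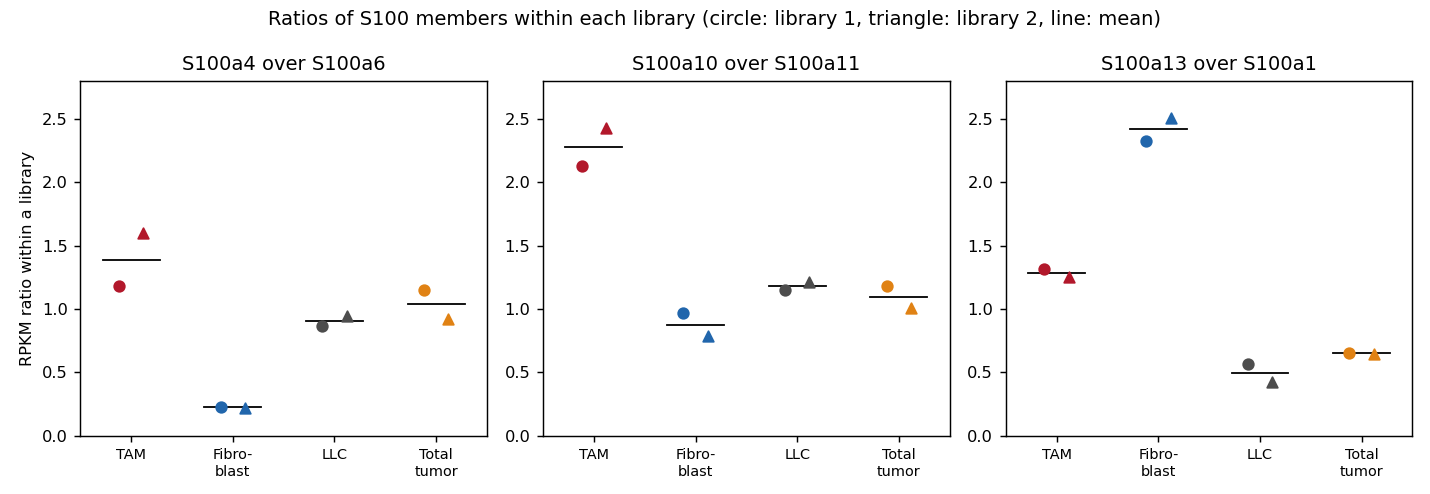
Ratio of RPKM within a library (vertical axes, linear from 0) of S100a4 over S100a6, S100a10 over S100a11 and S100a13 over S100a1, in TAM, Fibroblast, LLC and Total tumor (circles library 1, triangles library 2, lines means). Fibroblast is lowest in the first ratio, near 0.22, and highest in the last, at 2.33 and 2.51, and TAM is highest in the middle one, at 2.13 and 2.43.

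S100a10 and S100a11, which bind annexins at membranes, varied less between sorted populations than the members above. S100a10 (p11), the partner of annexin A2, was at 599 and 555 RPKM in TAM, 426 and 315 RPKM in Fibroblast, 417 and 377 RPKM in LLC, and 351 and 962 RPKM in Total tumor. TAM lay above the other sorted populations, and Fibroblast and LLC overlapped. The log2 difference was 0.65 against Fibroblast (SE 0.51, adjusted p = 0.377) and 0.54 against LLC (SE 0.51, adjusted p = 0.429), and neither passed. S100a11 (calgizzarin), which binds annexin A1, was at 281 and 228 RPKM in TAM, 438 and 402 RPKM in Fibroblast, 363 and 310 RPKM in LLC, and 297 and 957 RPKM in Total tumor. Its order among sorted populations was the reverse, Fibroblast above LLC above TAM, with no overlap. TAM against Fibroblast gave -0.73 (SE 0.54, adjusted p = 0.35) and did not pass. This difference passed after quantile normalization (-1.01, adjusted p = 0.0162) and length correction (-1.18, adjusted p = 0.00397). It also passed, again at -0.73, without Total tumor 1 or 2, fits that leave 1 whole-tumour library. TAM against LLC gave -0.41 (SE 0.54, adjusted p = 0.578), and passed after quantile normalization (-1.12, adjusted p = 0.00993).

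Set against each other, S100a10 over S100a11 was 2.13 and 2.43 in TAM, 0.972 and 0.784 in Fibroblast, 1.15 and 1.21 in LLC, and 1.18 and 1.01 in Total tumor. Anxa2, the gene of annexin A2, was at 846 and 911 RPKM in TAM, 754 and 583 RPKM in Fibroblast, 786 and 640 RPKM in LLC, and 623 and 1052 RPKM in Total tumor, and passed no comparison. S100a10 over Anxa2 stayed between 0.531 and 0.708 in the 6 sorted libraries. Anxa1, the gene of annexin A1, was at 207 and 181 RPKM in TAM, against 629 and 559 RPKM in Fibroblast and 646 and 574 RPKM in LLC. It was lower in TAM than in Fibroblast by a log2 difference of -1.61 (SE 0.33, adjusted p = 0.00605) and than in LLC by -1.65 (SE 0.33, adjusted p = 0.00518). S100a11 over Anxa1 was 1.36 and 1.26 in TAM, 0.697 and 0.719 in Fibroblast and 0.562 and 0.541 in LLC.

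S100a1 and S100a13 sit beside each other on opposite strands, and their levels ran in opposite directions across the sorted populations. S100a1, best known as a regulator of calcium cycling in muscle, was at 55.8 and 58.8 RPKM in TAM, 42.0 and 36.6 RPKM in Fibroblast, 100 and 93.4 RPKM in LLC, and 65.2 and 181 RPKM in Total tumor. S100a13, known for its part in the release of Fgf1 and interleukin 1 alpha, was at 73.8 and 73.3 RPKM in TAM, 98.0 and 91.7 RPKM in Fibroblast, 57.0 and 40.01 RPKM in LLC, and 42.8 and 117 RPKM in Total tumor. The 3 sorted populations did not overlap for either gene: S100a1 was highest in LLC and lowest in Fibroblast, and S100a13 was highest in Fibroblast and lowest in LLC. S100a13 over S100a1 was 1.32 and 1.25 in TAM, 2.33 and 2.51 in Fibroblast, 0.568 and 0.428 in LLC, and 0.656 and 0.648 in Total tumor. This ratio put both Total tumor libraries just above LLC although S100a1 was 2.78 times and S100a13 2.75 times as high in Total tumor 2 as in Total tumor 1.

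S100a1 was lower in Fibroblast than in LLC by -1.28 (SE 0.43, adjusted p = 0.0485 in limma) and than in Total tumor by -1.45 (SE 0.43, adjusted p = 0.0298). The first call was lost without any TAM, Fibroblast or LLC library (adjusted p = 0.0803 without TAM 1, 0.0801 without TAM 2, 0.152 without Fibroblast 1, 0.208 without Fibroblast 2, 0.186 without LLC 1 and 0.137 without LLC 2), with the replicate block (0.0649), after upper-quartile rescaling (0.137), with either other pseudocount (0.051 and 0.0536), with no filter (0.0731) and with no variance trend (0.0525). Leaving out the same libraries in the same order gave 0.0536, 0.0535, 0.111, 0.154, 0.0539 and 0.0536 for Fibroblast against Total tumor, where upper-quartile rescaling gave 0.104, length correction 0.161 and a fit of only these groups 0.105. S100a13 did not pass for Fibroblast against LLC (log2 difference 0.97, SE 0.44, adjusted p = 0.118), but passed without Total tumor 1 or 2 (0.00775 and 0.00754) and after upper-quartile rescaling (0.0163). In TAM against LLC, leaving out Total tumor 1 or 2 made S100a1 pass as lower (log2 difference -0.75, adjusted p = 0.00734 and 0.0071) and S100a13 as higher (0.61, adjusted p = 0.0398 and 0.0391). In TAM against Fibroblast the same fits made S100a1 pass as higher (0.54, adjusted p = 0.0313 and 0.0305).

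The S100a13 window (chr3:90514185-90514484, plus strand, GRCm38.p6, RefSeq) is shown because 204 of its 300 bases, in capitals, also lie in the window of S100a1, which is read from the minus strand. None of the motifs searched was found in it.
S100a13: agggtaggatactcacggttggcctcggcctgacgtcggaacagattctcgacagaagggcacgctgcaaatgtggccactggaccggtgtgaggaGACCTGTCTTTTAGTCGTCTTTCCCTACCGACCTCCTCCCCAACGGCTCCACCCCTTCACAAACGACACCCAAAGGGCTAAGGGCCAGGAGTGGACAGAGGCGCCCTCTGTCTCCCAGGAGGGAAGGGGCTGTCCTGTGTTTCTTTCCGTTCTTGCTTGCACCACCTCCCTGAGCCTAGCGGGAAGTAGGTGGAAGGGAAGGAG
The annotated spans of the 2 genes overlap, and whether reads were counted by strand is not given in the sources used here. It is therefore not known if reads from the stretch where the spans overlap were told apart between S100a1 and S100a13. The genes closest to S100a13 in pattern were Slc39a1, Nupr1 and Igsf8, at 0.163, 0.191 and 0.206, and the closest to S100a1 was Rpl35a, at 0.077.

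S100a16, a broadly expressed member whose role is less well defined, was the member with the largest difference between sorted populations. It was at 1.88 and 3.59 RPKM in TAM, 161.4 and 160.8 RPKM in Fibroblast, 10.6 and 21.6 RPKM in LLC, and 10.6 and 19.6 RPKM in Total tumor. Both Fibroblast libraries lay above all others and both TAM libraries below all others, while LLC and Total tumor overlapped. TAM averaged 2.73 ± 1.21 RPKM and Fibroblast 161.1 ± 0.465 RPKM (SD, n = 2 each). The log2 difference was -5.48 for TAM against Fibroblast (SE 0.42, adjusted p = 0.000116), -2.16 for TAM against LLC (SE 0.42, adjusted p = 0.00478) and 3.32 for Fibroblast against LLC (SE 0.42, adjusted p = 0.00106), a 10.0-fold ratio of means. All 3 calls held in all 20 alternatives, which include each library left out in turn. Fibroblast was above Total tumor by 3.39 (SE 0.42, adjusted p = 0.00114), also in all 20, and TAM was below it by -2.09 (SE 0.42, adjusted p = 0.00808), which was lost without TAM 1 (adjusted p = 0.06) and in a fit of only these 2 groups (0.0545).

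Outside the Fibroblast gate, S100a16 and the fibroblast markers were both higher in library 2 than in library 1 of TAM and of LLC. In TAM 1 and TAM 2, S100a16 was at 1.16% and 2.23% of its Fibroblast mean and the summed fibroblast markers were at 0.56% and 2.77% of theirs. The same shares in LLC 1 were 6.6% for S100a16 and 16.1% for the markers, and in LLC 2 they were 13.4% and 21.5%. Total tumor 1 and 2 had 6.57% and 12.2% for S100a16 and 11.9% and 9.3% for the markers. The part of fibroblast RNA in these values was not tested. The genes closest to S100a16 in pattern were Eln (elastin), Srpx2 and Rhoj, at root-mean-square log2 differences of 0.384, 0.39 and 0.432, and Eln averaged 1.91 RPKM in TAM and 116 RPKM in Fibroblast.

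The first of 2 S100a16 windows (chr3:90537004-90537303, plus strand, GRCm38.p6, RefSeq) is shown because this gene had the largest difference between sorted populations. Capitals mark its 1 match, GAGGAA on the other strand at bases 71 to 76.
S100a16: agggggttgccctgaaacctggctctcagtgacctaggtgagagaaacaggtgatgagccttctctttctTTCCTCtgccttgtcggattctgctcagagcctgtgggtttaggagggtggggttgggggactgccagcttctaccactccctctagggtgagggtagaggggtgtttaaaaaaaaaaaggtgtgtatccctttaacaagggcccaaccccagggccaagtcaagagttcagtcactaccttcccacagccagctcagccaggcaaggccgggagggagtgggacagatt
It holds no TATAAA. The second window holds the AP-1 motif at bases 59 to 65, a motif in 7.8% of windows that S100a11 holds as well.

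S100b, known as a product of glia, Schwann cells and melanocytes, was near the limit of detection. It was at 0.211 and 0.135 RPKM in TAM, 1.45 and 1.65 RPKM in Fibroblast, 0 and 0.281 RPKM in LLC, and 0.06 and 0 RPKM in Total tumor. It passed the filter on low values through the Fibroblast libraries alone, so its calls there (TAM against Fibroblast -1.12, adjusted p = 0.00682, Fibroblast against LLC 1.17, adjusted p = 0.00676, and Fibroblast against Total tumor 1.31, adjusted p = 0.00434) are part of the counts but are no separate evidence. Without LLC 1 the call against LLC was lost (adjusted p = 0.061). At 3 reads, the zeros allow up to about 0.195 RPKM in LLC 1 and 0.43 RPKM in Total tumor 2. Of 6 Schwann cell and melanocyte markers, 4 were tested and none passed in any comparison in limma. At an unadjusted p under 0.05 there was 1, higher in TAM than in Fibroblast, and 0 in the other comparisons.

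**Figure D5:**
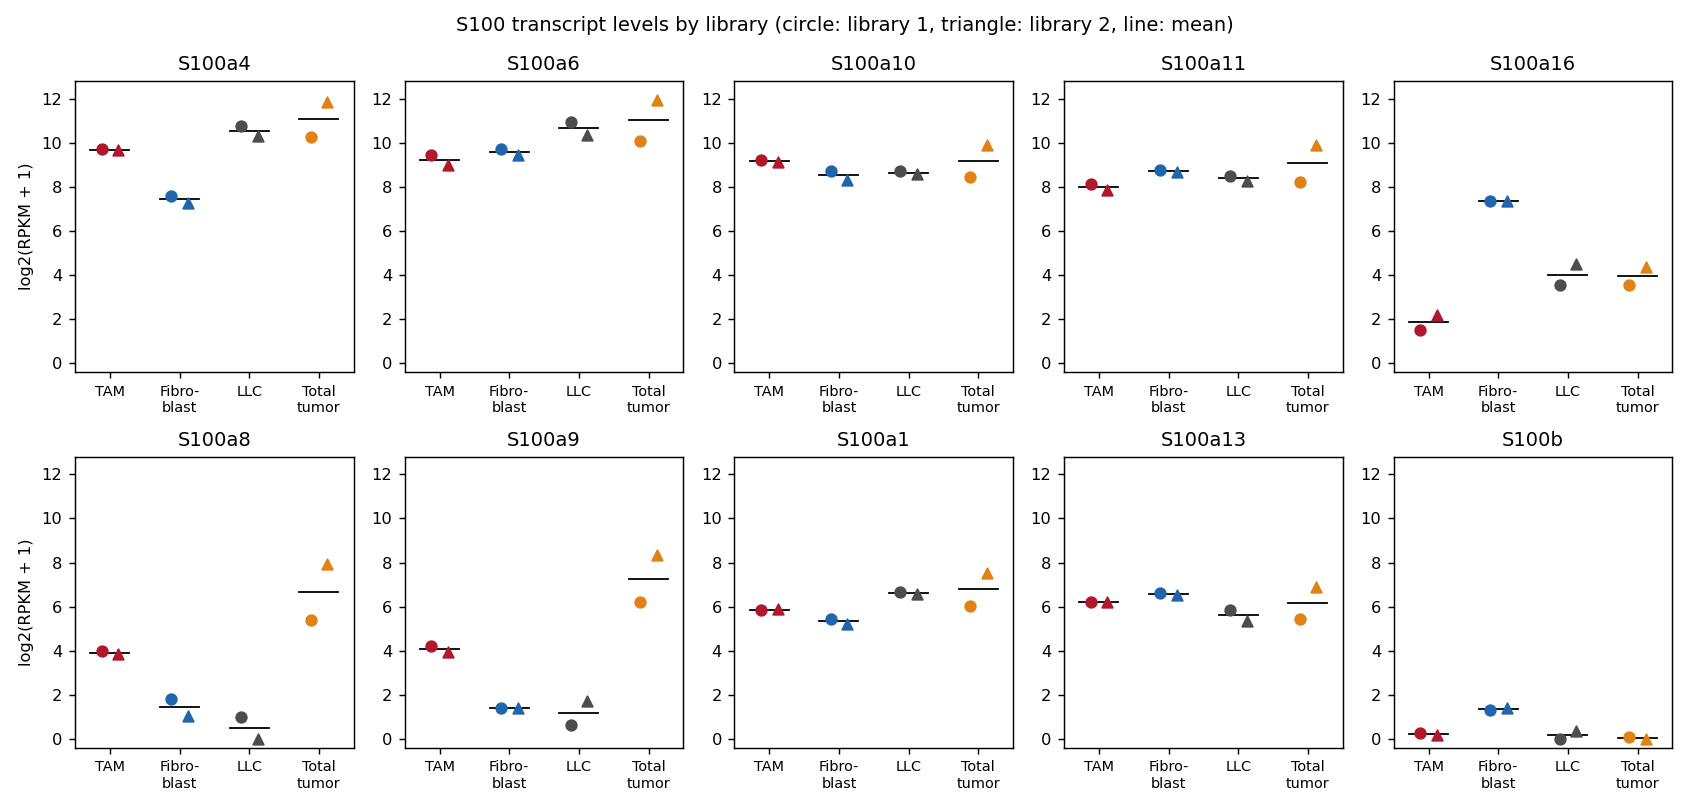
log2(RPKM + 1) (vertical axes, same range) of the 10 S100 members in TAM, Fibroblast, LLC and Total tumor libraries (horizontal axes; circles library 1, triangles library 2, lines means). S100a4 is lowest and S100a16 highest in Fibroblast, S100a8 and S100a9 are highest in Total tumor, and library 2 of Total tumor lies above library 1 for every member except S100b.

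Against whole tumours, TAM libraries had 3 members lower, beside 23.9% of all genes, and none higher, beside 11.3%. Fibroblast libraries had 4 members lower and 2 higher than Total tumor, beside 30% and 12.1% of all genes. LLC libraries had 2 members lower, beside 2.3% of all genes, and none higher, beside 0.0526%. In both comparisons with no member higher, limma also gave 0 members higher at an unadjusted p under 0.05. The members' median log2 difference was -1.23 for TAM, -1.05 for Fibroblast and -0.55 for LLC, where the medians of all genes were -0.36, -0.51 and -0.03. After length correction the members' medians were -0.62, -0.05 and -0.05, and those of all genes 0.05, 0.00 and 0.00. The members' medians also depended on which Total tumor library was used. Without Total tumor 1 they were -2.04 for TAM, -1.79 for Fibroblast and -1.29 for LLC, and without Total tumor 2 they were -0.41, -0.21 and 0.17. Of all genes called between TAM and Total tumor, 32.2% were higher in TAM as deposited and 50.4% after quantile normalization. Between Fibroblast and Total tumor, 28.8% of calls were higher in Fibroblast as deposited and 55.8% after upper-quartile rescaling. Members with no call here included S100a10, at -0.01 for TAM against Total tumor (SE 0.51, adjusted p = 0.991), and S100a16, at 0.07 for LLC against Total tumor (SE 0.42, adjusted p = 0.966).

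The remaining S100 genes listed were low in every library, at 8.07 RPKM or less. Of 6, S100a3 and S100a7a passed the filter, and S100a5, S100a14, S100g and S100z did not. S100a3 was at 0 and 0 RPKM in TAM, 0.136 and 0 RPKM in Fibroblast, 1.49 and 2.63 RPKM in LLC, and 2.26 and 8.07 RPKM in Total tumor. S100a7a was at 0 and 0 RPKM in TAM, 0.522 and 0.858 RPKM in Fibroblast, 2.48 and 4.42 RPKM in LLC, and 0.542 and 3.45 RPKM in Total tumor. Both passed as lower in TAM than in LLC (adjusted p = 0.0269 and 0.0102), and S100a3 also as lower in Fibroblast than in LLC (adjusted p = 0.0374), all with low counts behind them. S100a7a reached 1 RPKM only in LLC 1, LLC 2 and Total tumor 2. It thus passed the filter through the LLC libraries, and its call against LLC is no separate evidence.

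Of 7 genes for receptors and co-receptors of secreted S100 proteins, 4 were higher and none lower in TAM than in Fibroblast libraries, with 0 lower at an unadjusted p under 0.05 in limma, beside 17.4% of all genes higher and 17.3% lower. Against LLC 4 were again higher and none lower, with 1 lower, Ager, at an unadjusted p under 0.05, beside 15.4% and 27.5% of all genes. Their median log2 difference was 1.34 against Fibroblast and 1.503 against LLC, where the medians of all genes were 0.13 and -0.38. Cd14, a co-receptor of Toll-like receptor 4, was at 556 and 295 RPKM in TAM, against 8.49 and 10.7 RPKM in Fibroblast and 7.91 and 10.1 RPKM in LLC. The log2 difference was 5.27 against Fibroblast (SE 0.35, adjusted p = 0.000104). Cd36, a scavenger receptor, was higher by 4.15, Ly96, the co-receptor MD-2, by 2.43, and Tlr4, the receptor itself, by 1.34 (adjusted p = 0.000229, 0.0104 and 0.0268). Cd36 was also higher in Fibroblast than in LLC, by 1.27 (SE 0.42, adjusted p = 0.0481). Bsg and Nptn, immunoglobulin-family proteins reported to bind S100A9 and S100A8 in human cells, passed no comparison. Ager, which encodes the receptor RAGE, was at 0.679 and 0.973 RPKM in TAM, 2.10 and 1.07 RPKM in Fibroblast, 4.05 and 1.86 RPKM in LLC, and 3.27 and 5.23 RPKM in Total tumor, and was the 1 gene of this list lower in TAM than in Total tumor (log2 difference -1.502, SE 0.38, adjusted p = 0.0198). The 3 genes higher in TAM than in Total tumor were Cd36 (2.56, adjusted p = 0.00396), Cd14 (1.96, adjusted p = 0.00544) and Tlr4 (1.65, adjusted p = 0.0132), beside 11.3% of all genes higher and 23.9% lower.

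Of 11 genes for intracellular partners, 10 were tested. TAM had 1 higher (Anxa11) and 3 lower (Anxa1, Ppfibp1, Fgf1) than Fibroblast, beside 17.4% and 17.3% of all genes. Fgf1 was low, at 0.567 and 0.4 RPKM in TAM and 1.35 and 1.89 RPKM in Fibroblast. Outside Fibroblast it reached 1 RPKM only in LLC 2. It thus passed the filter through the Fibroblast libraries, and its call is part of the count but no separate evidence. Against LLC, TAM had 1 higher (Anxa6) and 3 lower (Anxa1, Ppfibp1, Cacybp), beside 15.4% and 27.5% of all genes, the share of partners lower being near that of all genes. Fibroblast had 1 higher (Anxa6) and 4 lower (Anxa11, Myh9, Ppfibp1, Cacybp) than LLC, beside 13% and 25.7% of all genes. Their median log2 differences were 0.22, -0.28 and -0.33 in these 3 comparisons, where those of all genes were 0.13, -0.38 and -0.46. Anxa6, the gene of annexin A6, was at 112 and 100 RPKM in TAM and 118 and 93.0 RPKM in Fibroblast, against 4.59 and 7.07 RPKM in LLC. Myh9, the heavy chain of non-muscle myosin IIA and a partner of S100a4, was at 80.3 and 69.3 RPKM in Fibroblast, against 145 and 133 RPKM in LLC (log2 difference -0.89, SE 0.29, adjusted p = 0.0446), the pair of groups in which S100a4 was also lower in Fibroblast. Cacybp, the partner of S100a6, was at 18.3 and 17.0 RPKM in Fibroblast, against 77.9 and 74.6 RPKM in LLC (log2 difference -2.05, SE 0.26, adjusted p = 0.00109).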

How the data were processed

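Poly(A) RNA of 8 mouse libraries (200 ng of RNA each, 50-base reads, per the labels' protocols) was processed by the authors to RPKM per RefSeq transcript, deposited as 1 table of 31645 transcripts. The submitters' processing notes name STAR, HOMER and mm9; what versions, filters and strandedness were used is not given in the sources used here. Without counts, no count model was used: only 57.7% to 62.3% of low values were whole multiples of a read's worth, within 0.05 read, so depths are estimates.

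Transcripts with no symbol (3, at most 0.0032% of summed RPKM) were left out. 1 transcript per symbol was kept, that with the highest mean, which left 23952 symbols; 1 member, S100a9, had several. A gene had to reach 1 RPKM in 2 or more libraries, and log2(RPKM + 1) was fitted with limma 3.58.1 (empirical Bayes with trend, R 4.3.3) over 4 groups (residual degrees of freedom 4, prior 3.62), for 6 comparisons. The fit was tested on simulated data. Lengths came from GENCODE for 98.4% of genes tested. The members, lists and tests were chosen with earlier results of these data known. Genes named are the members, the listed S100 genes, at most 4 genes of each other list by mean RPKM, and the 3 closest to each member in pattern, of which some are given. Emr1, Cxcr2, Camp, Mpo, Ly96, Tlr4, Ager, Anxa11, Ppfibp1, Cacybp and Fgf1 fall outside that rule or were picked after their values were seen, as were the ratios between members. Alternatives changed the pseudocount, filter, scaling, length trend, variance trend, samples fitted, replicate block, transcript choice and minimum fold, and left out each library.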

Additional observations from a re-analysis of the deposited data

How the results depend on the processing

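The S100a16 calls between sorted populations held in all 20 alternatives, as did those of S100a4, S100a8, S100a9 and S100a16 for Fibroblast against Total tumor. Counts of members that moved by more than 1.5 times were these. TAM higher than Fibroblast was 1 with a pseudocount of 5 and 1 with no filter (3 as reported), and TAM lower than Fibroblast was 1 with a filter at 5 RPKM and 4 after length correction (2 as reported). TAM higher than LLC was 1 with a pseudocount of 5 (2 as reported), and TAM lower than LLC was 5 after quantile normalization, 4 after length correction and 3 when fitting only the groups compared (1 as reported). Fibroblast higher than LLC was 1 with the filter at 5 RPKM, which drops S100b, and 5 after length correction (2 as reported). Fibroblast lower than LLC was 1 with pseudocounts of 0.1 and 5, with no filter, upper-quartile rescaling, no variance trend or the replicate block (2 as reported). Against Total tumor, TAM higher was 1 after length correction (0 as reported), TAM lower was 6 after quantile normalization, 5 after length correction and 0 when fitting only the groups compared (3 as reported), Fibroblast higher was 1 with the filter at 5 RPKM and 4 after length correction (2 as reported), and LLC lower was 0 with no filter and 0 when fitting only the groups compared (2 as reported). The cause of these shifts was not tested. Leaving out 1 library at a time gave 0 to 4 members higher and 2 to 3 lower for TAM against Fibroblast, 0 to 3 and 1 to 4 for TAM against LLC, 1 to 3 and 0 to 3 for Fibroblast against LLC, 0 to 1 and 1 to 7 for TAM against Total tumor, 2 to 3 and 3 to 7 for Fibroblast against Total tumor, and 0 to 7 lower for LLC against Total tumor. The 7 arose in each case without Total tumor 1.

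Of the members' 60 differences, 18 changed sign under at least 1 alternative, none of them called as reported. Quantile normalization gave -0.35 for S100a10 (TAM against LLC), -0.11 for S100a11 (Fibroblast against LLC) and 0.10 for S100a1 (LLC against Total tumor). Upper-quartile rescaling gave 0.40 for S100a10 (Fibroblast against LLC), 0.25 for S100a10 (TAM against Total tumor) and 0.27 for S100a11 (Fibroblast against Total tumor). Length correction gave 0.41 for S100a10 (Fibroblast against LLC), and against Total tumor 0.55 (TAM) and 0.34 (Fibroblast) for S100a10, 0.70 (Fibroblast, adjusted p = 0.0425 in limma) for S100a11, and 0.31 and 0.12 (LLC) for S100a1 and S100a6. Leaving out 1 library at a time, the differences that changed sign ranged as follows. For TAM against LLC, S100b ranged from -0.13 to 0.23. For Fibroblast against LLC, S100a9 ranged from -0.29 to 0.77 and S100a10 from -0.33 to 0.10. For TAM against Total tumor, S100a10 ranged from -0.74 to 0.71 and S100a13 from -0.67 to 0.77. For Fibroblast against Total tumor, S100a10 ranged from -1.39 to 0.060, S100a11 from -1.19 to 0.50 and S100a13 from -0.31 to 1.13. For LLC against Total tumor, S100a1 ranged from -0.90 to 0.56, S100a4 from -1.32 to 0.24, S100a6 from -1.29 to 0.59, S100a10 from -1.28 to 0.17, S100a11 from -1.51 to 0.18, S100a13 from -1.28 to 0.16, S100a16 from -0.41 to 0.55 and S100b from -0.042 to 0.32. In the comparisons with Total tumor the ends of these ranges came from leaving out Total tumor 1 or Total tumor 2, except for S100a16 and S100b, for which they came from leaving out an LLC library.

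No label says what the replicate number marks. The estimated depth was 8.54 to 10.37 M reads in every library 1 and 4.28 to 4.72 M in every library 2, so depth and number cannot be told apart. With 2 numbers a group, whether they pair the libraries was not settled: deviations of same-numbered libraries correlated at 0.162, 0.274 and 0.206 between sorted populations and at -0.361, -0.179 and -0.232 between TAM, Fibroblast or LLC and Total tumor. The replicate block ended 2 calls, S100a8 for TAM against Fibroblast (adjusted p = 0.0608 in limma) and S100a1 for Fibroblast against LLC (0.0649), and left 2 members higher in TAM than in Fibroblast and 1 lower in Fibroblast than in LLC. It changed no other call of the members. Depth limits S100b and, outside TAM and Total tumor, S100a8 and S100a9, which rest on a few reads.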
